A study of Drosophila melanogaster with 20 samples.

Results

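The genes of the cytosolic ribosome were followed in RNA sequencing libraries of fat body and brain from female Drosophila melanogaster. A gene was taken as a member when its symbol in the deposited tables began with RpL or RpS followed by a digit or by P. The genes sta and sop were members as well. In the RefSeq table sta is a current symbol, while sop is an older symbol that matches both RpS2 and Arpc1. It was read as RpS2 here. Genes of the mitochondrial ribosome, whose symbols begin with mRp, were left out. This gave 91 of the 13973 genes that could be used. By their names, 38 were placed in the small subunit, 50 in the large subunit outside its stalk and 3 in the stalk itself (RpLP0, RpLP1 and RpLP2). Of the 91 genes, 84 had a mean of at least 1 RPKM over all libraries and 79 had a mean of at least 100 RPKM in every group. RPKM is the number of reads on a gene divided by its exon length in kilobases and by the depth of the library.

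A ribosome is built from ribosomal RNA and from a fixed set of proteins, nearly all of them present in a single copy per ribosome, so that the genes for these proteins are usually transcribed to like levels. Their transcripts carry a start sequence that places their translation under the TOR pathway, which senses amino acids and insulin, and in flies the loss of a single copy of many of these genes gives the Minute phenotype of slow growth and short bristles. The fat body combines tasks that vertebrates divide between liver and adipose tissue, and it secretes much protein, including yolk proteins in adult females.

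The flies were wild type (WT) of the strain Oregon-R and were listed as 5 days old, with 5 days on either diet. The groups were the fat body on a high sugar diet (HSD), the fat body on normal food (ND), the brain on HSD and the brain on ND, with 5 libraries in each of the 4 groups. The libraries were made from poly(A) RNA. The labels name neither the number of animals per library nor whether the libraries of a group came from separate cohorts.

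The fat body libraries held 10.7 to 23.4 M reads on genes on HSD and 5.6 to 40.4 M on ND, and the brain libraries held 22.6 to 46.3 M on HSD and 21.7 to 37.6 M on ND (M, megareads). The 79 abundant members had at least 1006 reads in every library, so counting error was small beside the spread between libraries. Neuron markers summed to 3.96 to 19.8 RPKM in the fat body on HSD and 5.39 to 11.5 RPKM on ND, against 3008 to 3691 RPKM in the brain on HSD and 2545 to 3661 RPKM on ND. Fat body markers, the yolk protein genes among them, summed to 59280 to 105700 RPKM in the fat body on HSD and 79720 to 178100 RPKM on ND, and to 600.1 to 4052 RPKM in the brain on HSD and 631.1 to 10590 RPKM on ND. The highest brain sum was that of ND library 5, which also held 148.7 RPKM of oenocyte markers. Eye markers summed to 74.55 to 2739 RPKM in the brain on HSD and 85.38 to 250 RPKM on ND. Gut markers summed to 0.4874 to 341.8 RPKM in the brain on HSD and 0.659 to 11.77 RPKM on ND. Ovary and germline markers summed to 98 to 1785 RPKM in the fat body on HSD and 509.5 to 12950 RPKM on ND. Libraries ND 4, ND 5 and HSD 4 of the fat body stood apart in having only 321, 96 and 400 genes with 1 to 3 reads, against at least 1066 in each other library. In bulk tissue, fewer cells of a type and less RNA per cell cannot be told apart.

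Transcripts of the 91 genes took a larger share of all RPKM in the fat body than in the brain. Their share of the summed RPKM was 31.0, 32.6, 29.0, 30.2 and 26.7% in fat body HSD libraries 1 to 5, against 21.8, 21.2, 20.9, 23.6 and 26.5% in fat body ND libraries 1 to 5. It was 8.90, 8.93, 9.65, 11.5 and 11.0% in brain HSD libraries and 9.95, 9.23, 9.43, 9.50 and 14.0% in brain ND libraries. Every fat body library thus lay above every brain library, and every fat body HSD library lay above every fat body ND library, with HSD 5 and ND 5 only a fraction of a percent apart. The means were 29.9% ± 2.2 and 22.8% ± 2.3 in the fat body on HSD and ND, and 9.998% ± 1.19 and 10.4% ± 2.0 in the brain on HSD and ND (SD, n = 5 each). Because these genes are short, with a median length of 773 bases against 1996 bases over all genes at that level, their share of the reads themselves was smaller, at 15.4% and 11.5% in the fat body on HSD and ND and 3.22% and 3.41% in the brain on HSD and ND.

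**Figure D1:**
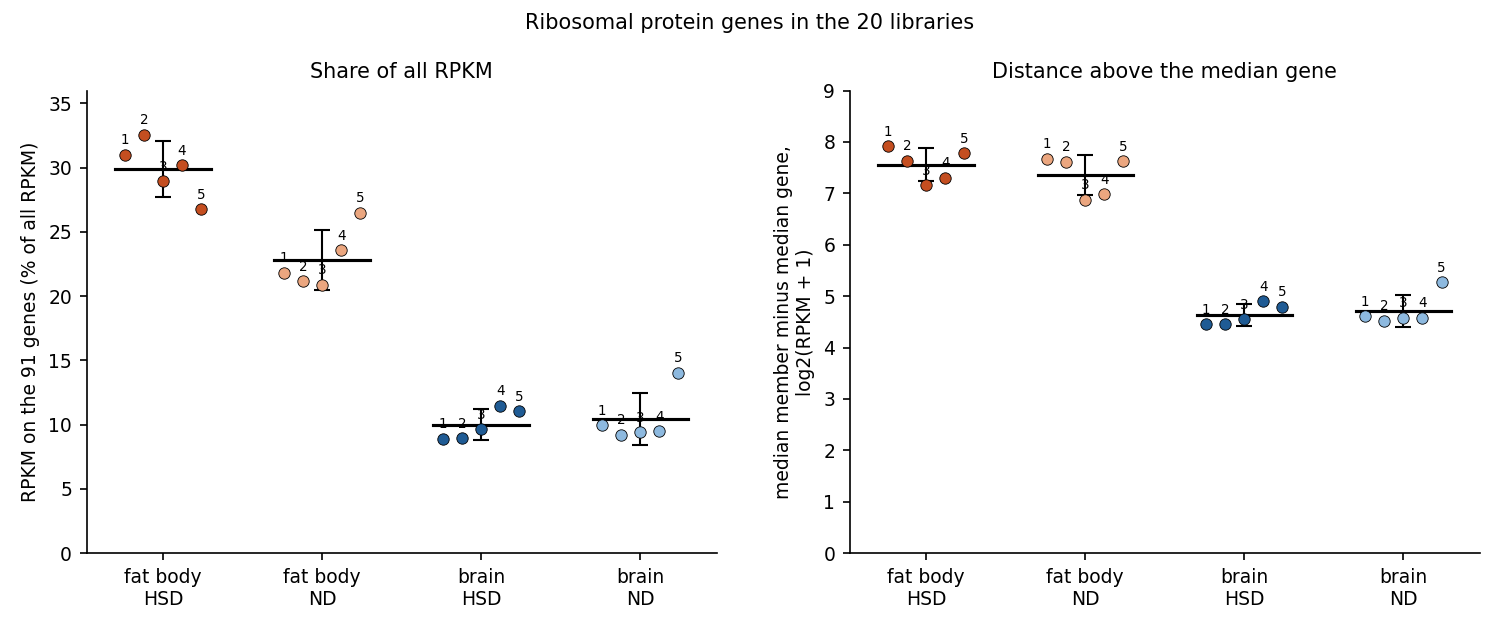
Left, RPKM on the 91 ribosomal protein genes as a percentage of all RPKM in each library; right, the median of the ribosomal protein genes with a mean of at least 1 RPKM minus the median gene, on the log2(RPKM + 1) scale. Points are libraries with their numbers, horizontal lines are means and bars are SD (n = 5); fat body HSD libraries range over 26.7 to 32.6% on the left, above the 20.9 to 26.5% of fat body ND, while the same groups overlap on the right.

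The yolk protein genes took a smaller share on HSD than on ND in the mean, with overlap through HSD 5. They made up 6.01, 7.22, 6.44, 7.28 and 13.5% of all RPKM in HSD libraries 1 to 5, against 25.8, 21.9, 19.2, 10.3 and 12.7% in ND libraries 1 to 5. With the yolk protein genes left out of the total, the ribosomal protein genes made up 32.5% ± 1.7 on HSD and 27.8% ± 2.0 on ND. The distance of the median ribosomal protein gene above the median gene, which does not depend on the total, was 7.91, 7.64, 7.16, 7.30 and 7.78 in fat body HSD libraries and 7.67, 7.62, 6.88, 6.98 and 7.62 in fat body ND libraries, in log2 units. On this scale the diets overlapped, and libraries 3 and 4 were the lowest on both, while HSD was above ND in each of the 5 pairs of same-numbered libraries, by 0.0188 to 0.319. In the brain it was 4.46, 4.45, 4.55, 4.90 and 4.80 on HSD and 4.61, 4.52, 4.58, 4.58 and 5.27 on ND, so the tissues stayed apart. The part of the yolk protein share in the diet difference was not tested beyond these values.

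Among the 100 genes of highest RPKM in a library, 67 to 75 were ribosomal protein genes in the fat body on HSD and 65 to 69 on ND, against 30 to 41 in the brain on HSD and 32 to 52 on ND. RpL41, whose product is the smallest ribosomal protein, led the set in each of the 4 groups, with a mean of 7214 and 5457 RPKM in the fat body on HSD and ND and 1160 and 1319 RPKM in the brain on HSD and ND. Below it the order differed between tissues. In the fat body RpL23A followed on both diets, at 4047 RPKM on HSD and 2857 RPKM on ND, and in the brain RpL5, a carrier of 5S ribosomal RNA, at 1039 RPKM on HSD and 1139 RPKM on ND. Over the 79 abundant members, Spearman's rho of the levels was 0.556 between fat body and brain on HSD and 0.551 on ND, and 0.981 between HSD and ND in the fat body. These are descriptions over genes that share their libraries. The RPKM of the small subunit genes was 0.605 to 0.638 times that of the large subunit and stalk genes in the fat body libraries and 0.666 to 0.693 times in the brain libraries, with no overlap between tissues.

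To ask how the sets of the tissues differ, fat body was compared with brain on each diet. On HSD 82 of the 84 members tested were higher in fat body than in brain, and 0 were lower (limma with Benjamini-Hochberg adjustment, adjusted p under 0.05), where 27.2% of the 9316 genes tested were higher and 47.3% were lower. On ND, 82 of 85 were higher and 2, RpL24-like and RpL37b, were lower, where 23.2% of the 9220 genes tested were higher and 51.6% were lower. The median log2 fold change of the members was 2.26 on HSD (a 4.79-fold higher level) and 1.73 on ND (3.31-fold), beside medians of -0.40 and -0.61 over all genes tested on HSD and ND. On HSD the 5 fat body libraries lay above the 5 brain libraries without overlap for 82 of 84 members, as for 22.5% of all genes, and on ND for 78 of 85, as for 19.3% of all genes. They lay below without overlap for 0 members on HSD, against 42.1% of all genes, and for 1 member on ND (RpL37b), against 44.5%. These counts hold 2 genes that had to differ, because they passed the filter on low values through 1 tissue alone: RpS5b through the fat body on both diets, and RpL37b through the brain on ND.

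The size of this tissue difference depended on the scale. Set against the median gene of each library, the median difference was 2.89 on HSD and 2.55 on ND, with 83 members higher on each diet, where 43.3% of genes on HSD and 42.6% on ND were higher. Of all genes, 32.9% on HSD and 32.3% on ND were lower on that scale. Quantile normalization, which gives every library the same distribution of values, left a median of 0.79 on HSD, beside 0.16 over all genes, with 63 members higher and 5 lower, where 42.6% of genes were higher and 35.1% were lower. On ND it left 0.56, beside 0.13 over all genes, with 54 members higher and 9 lower, where 41.1% of genes were higher and 34.8% were lower.

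The small subunit genes had median tissue differences of 2.19 on HSD and 1.71 on ND, and 33 of 34 were higher on both. RpS3, a protein of the mRNA entry site, had 2684, 2864, 2437, 2227 and 2108 RPKM in fat body HSD libraries 1 to 5, against 472, 455, 539, 639 and 620 RPKM in the brain on HSD. On ND it had 1844, 1840, 1730, 1675 and 2074 RPKM in the fat body, against 539, 468, 499, 483 and 938 RPKM in the brain. No fat body value overlapped a brain value, and the log2 fold change of fat body over brain was 2.18 ± 0.13 on HSD (SE, limma adjusted p = 3e-08) and 1.69 ± 0.18 on ND (adjusted p = 6.51e-06). With quantile normalization the difference on ND was 0.25 and no longer called (limma adjusted p = 0.0868).

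RpS6, the small subunit protein that the TOR-dependent kinase S6K phosphorylates, had 2575, 2607, 2305, 2458 and 2427 RPKM in the fat body on HSD, against 646, 631, 727, 827 and 828.5 RPKM in the brain on HSD. The tissues did not overlap, but the log2 difference of 1.76 ± 0.10 (SE, limma adjusted p = 1.9e-08) was among the smaller of the set. With quantile normalization RpS6 was instead called lower in fat body, at -0.14 on HSD (limma adjusted p = 0.0446) and -0.24 on ND (adjusted p = 0.0105). The gene sta encodes the counterpart of the laminin receptor protein RPSA, and sop encodes a protein of the decoding region. Their fat body over brain differences were 2.40 ± 0.11 and 2.20 ± 0.12 on HSD (SE), close to the median of the set, and on ND the call of sop was lost with quantile normalization (0.20, limma adjusted p = 0.115). RpS23, which lies at the decoding centre, stood at the upper end with 2.92 ± 0.17 on HSD and 2.53 ± 0.21 on ND, and averaged 2539 RPKM in the fat body and 331 RPKM in the brain on HSD.

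The large subunit genes had median tissue differences of 2.31 on HSD, with 46 of 47 higher, and 1.75 on ND, with 46 of 48 higher and 2 lower. RpL32, known in fly work as rp49 and widely used as the reference gene of quantitative PCR, had 1953, 1978, 1705, 1778 and 2027 RPKM in the fat body on HSD, against 312, 314, 373, 472 and 450 RPKM in the brain on HSD. On ND it had 1327, 1303, 1187, 1296 and 1704 RPKM in the fat body, against 393, 353, 350, 361 and 701 RPKM in the brain. The libraries of the tissues did not overlap, and the log2 difference was 2.31 ± 0.13 on HSD (SE, limma adjusted p = 2.4e-08) and 1.70 ± 0.20 on ND (adjusted p = 1.11e-05). RpL11, which binds 5S ribosomal RNA, and RpL30 had differences of 2.96 ± 0.15 and 2.86 ± 0.15 on HSD. At the other end stood RpL29, at 1.09 ± 0.13 on HSD and 0.73 ± 0.27 on ND, and RpL38, at 1.28 ± 0.17 on HSD and 0.92 ± 0.35 on ND. With quantile normalization RpL38 was at 0.05 on HSD and not called (limma adjusted p = 0.728), and RpL29 was called lower in fat body, at -0.67 on HSD (adjusted p = 1.81e-05) and -0.68 on ND (adjusted p = 0.000901). On ND the call of RpL29 (adjusted p = 0.0281) was lost, with adjusted p of 0.0553 to 0.066, when any 1 of 6 of the 10 libraries was left out (brain 1, 2, 3 and 4, and fat body 4 and 5).

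The stalk proteins RpLP0, RpLP1 and RpLP2 recruit and activate the elongation factors at the large subunit. All 3 genes were higher in fat body than in brain on both diets. RpLP2 had 3506, 3628, 3151, 3296 and 2316 RPKM in the fat body on HSD, against 314, 319, 362, 426 and 358 RPKM in the brain on HSD. On ND it had 2398, 2479, 2221, 1678 and 1582 RPKM in the fat body, against 351, 300.1, 306, 294 and 560 RPKM in the brain. Its tissue difference of 3.15 ± 0.13 on HSD (SE, limma adjusted p = 2.23e-09) and 2.53 ± 0.21 on ND (adjusted p = 4.76e-07) was exceeded by RpS5b alone among members with a mean of at least 5 RPKM. RpLP1 and RpLP0 had differences of 2.72 ± 0.17 and 2.40 ± 0.12 on HSD. The ubiquitin fusion genes RpS27A and RpL40, which each give a ribosomal protein and a ubiquitin, had 2.13 ± 0.17 and 2.08 ± 0.12 on HSD. With quantile normalization the call of RpS27A was lost on HSD (0.24, limma adjusted p = 0.119), and on ND those of RpS27A (0.28, adjusted p = 0.0871) and RpL40 (0.19, adjusted p = 0.115).

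**Figure D2:**
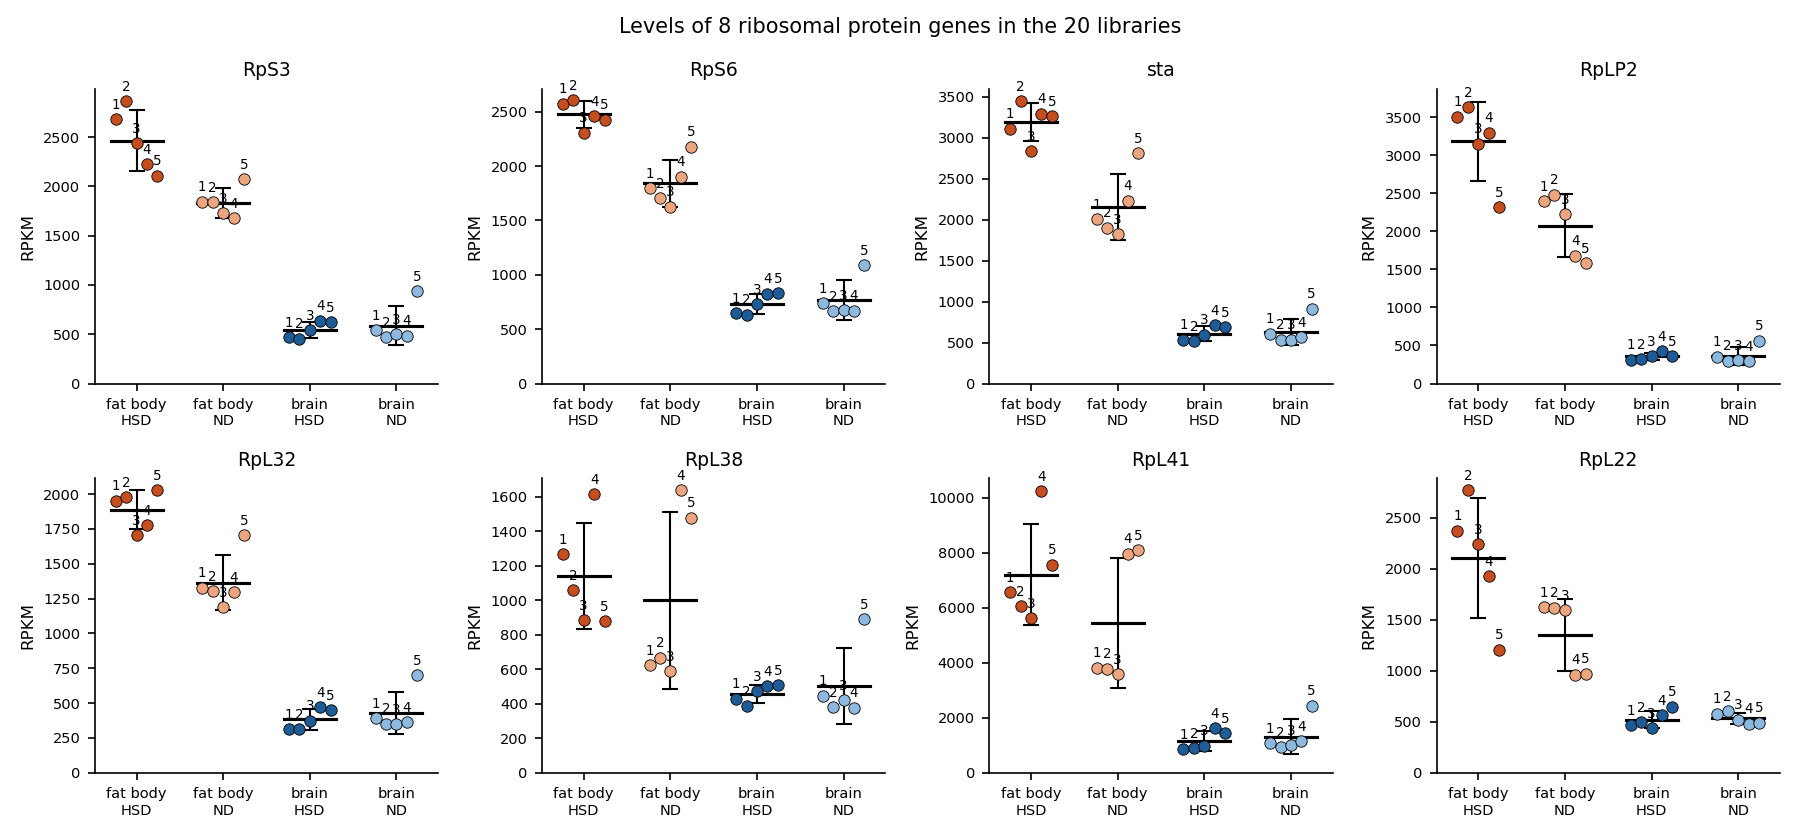
RPKM of 8 ribosomal protein genes in every library of the 4 groups (points with library numbers; lines are means and bars are SD, n = 5). RpS3, RpS6, sta, RpLP2, RpL32, RpL41 and RpL22 stand apart between tissues on both diets, and RpL38 does so on HSD only. Brain ND library 5 is the highest brain library for 7 of the 8 genes, and RpL38 and RpL41 are high in fat body ND libraries 4 and 5.

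Within the set, some genes differed between tissues by more or less than the rest. Each library was therefore also set against its own median ribosomal protein gene, a scale added after the data were seen. On HSD 29 of 84 members were then higher in fat body, where 5.85% of all genes were, and 33 were lower, where 86.6% were. On ND 25 of 85 were higher, where 7.38% of all genes were, and 32 were lower, where 83.9% were. The scale itself places members on both sides of their median and most other genes below it, so these shares show no enrichment. The HSD and ND comparisons share no library. Of the 84 members in both, 24 were higher on both diets (82.8% of those higher on HSD and 96% of those higher on ND), 30 were lower on both (90.9% of those lower on HSD and 96.8% of the 31 lower on ND), and 0 had opposite calls. Spearman's rho between the tissue differences of the members on HSD and on ND was 0.988. Neither the overlap nor rho was computed over all genes, most of which also differed between these tissues on each diet. The agreement is therefore not shown to be particular to this set.

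RpLP2 exceeded the median ribosomal protein gene by 0.85 on HSD and 0.71 on ND in log2 units, RpL11 by 0.66 and 0.60, RpS23 by 0.62 and 0.70, and RpLP1 by 0.42 and 0.38. RpL29 differed from it by -1.21 on HSD and -1.10 on ND, RpL38 by -1.02 and -0.91, RpS14a by -0.97 and -0.91, and RpS6 by -0.54 and -0.55. Each of these calls had a limma adjusted p under 0.05 on both diets. Spearman's rho between transcript length and the tissue difference on HSD was 0.0798 over the 84 members.

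**Figure D3:**
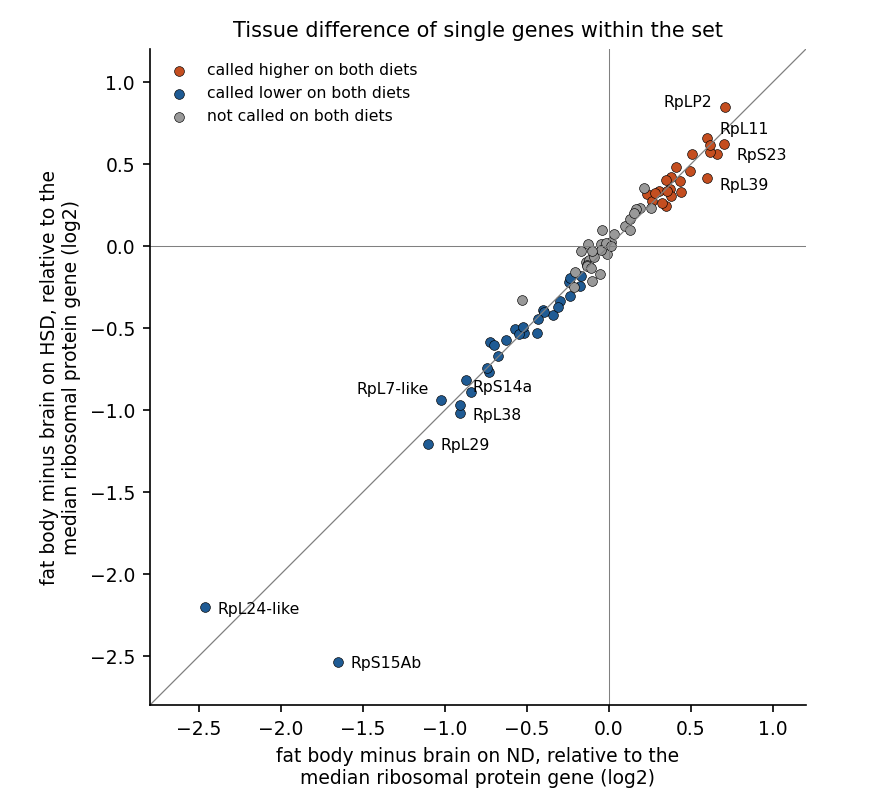
Fat body minus brain on HSD (vertical) and on ND (horizontal) for single ribosomal protein genes, each relative to the median ribosomal protein gene of its library, in log2 units; RpS5b, at 4.65 and 5.02, lies outside the frame. The 24 genes called higher on both diets (RpS5b included) lie at the upper right, the 30 called lower on both at the lower left, and no gene was called in opposite directions.

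Flies carry several of these genes in a second copy, and the share of each copy in the summed RPKM of its pair was compared between tissues. Genes with -like in their symbol were counted as copies by that symbol alone. In 7 pairs both copies reached a mean of at least 5 RPKM in some group, and 28 comparisons of shares were made by two-sided exact permutation of the 10 libraries, with Benjamini-Hochberg adjustment over the 28. The smallest p that 5 against 5 libraries can give is 0.00794, which became 0.0202 after adjustment. The share of a copy differed between tissues on both diets in the pairs of RpS15Ab, RpL24-like, RpL34a and RpL7-like. The pair of RpS5b entered through the fat body alone, so its tissue difference in share had to be large and is given as a description. Its tissue comparisons were still counted among the 28, so the 0.0202 of the other pairs is somewhat smaller than it would be without them. None of the comparisons between diets passed.

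RpS5b, a copy of RpS5a known for its expression in the ovary, made up 0.437, 21.0, 12.9, 13.5 and 9.49% of the pair in fat body HSD libraries and 5.75, 9.33, 14.4, 16.7 and 11.9% in fat body ND libraries. In the brain it was 0.112 to 0.212% on HSD and 0.114 to 0.672% on ND, so every fat body library was above every brain library on ND, and on HSD as well, where library 1 was close. On HSD the fat body libraries had the same order for RpS5b as for the germline gene osk. On ND osk was nearly level and RpS5b was not. Of the 24 ovary and germline markers found, osk alone had the RpS5b order on HSD. In fat body HSD libraries 1 to 5, yl had 2.75, 214, 113.5, 94.6 and 52.9 RPKM. Cp19 had 2.69, 0.430, 0.557, 5.38 and 671.5 RPKM in the same libraries. RpS5b had 10.9, 617, 317, 352 and 246 RPKM in fat body HSD libraries, where osk had 3.08, 256, 98.6, 163 and 67.1 RPKM. On ND RpS5b had 106.5, 169, 258.5, 325.5 and 278 RPKM, where osk had 92.6, 96.0, 101.5, 101.2 and 101.4 RPKM. In the brain RpS5b did not exceed 2.13 RPKM, in ND library 4, which also had the highest osk there, at 0.675 RPKM.

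RpS5b passed the filter on low values through the fat body alone, so its log2 difference between tissues of 6.95 ± 0.89 on HSD and 6.85 ± 0.31 on ND (SE) had to be large. HSD library 1 had the lowest ovary marker sum of the fat body libraries, at 98 RPKM, and 31.0% of its RPKM on ribosomal protein genes. RpS19b, a copy of RpS19a, was listed at 0 in all 10 brain libraries and reached at most 1.54 RPKM in the fat body, in HSD library 2, which also had the highest osk.

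RpL24-like made up 10.3% ± 1.8 of its pair with RpL24 in the fat body on HSD and 9.39% ± 2.1 on ND, against 25.7% ± 1.3 in the brain on HSD and 25.4% ± 2.1 on ND (SD, n = 5; exact permutation p = 0.00794, adjusted p = 0.0202 on each diet). The yeast counterpart of RpL24-like is an assembly factor that holds the place of the mature protein in the immature large subunit. RpL7-like and RpLP0-like likewise resemble yeast assembly factors. RpL7-like made up 1.08% ± 0.11 and 0.996% ± 0.27 in the fat body on HSD and ND, against 2.58% ± 0.23 and 2.42% ± 0.34 in the brain on HSD and ND, with every fat body library below every brain library (exact permutation p = 0.00794, adjusted p = 0.0202 on each diet). RpLP0-like had a lower share in fat body than in brain on ND, at 1.39% ± 0.49 against 2.21% ± 0.22 (adjusted exact permutation p = 0.0202), while on HSD the shares of 1.69% ± 0.74 in fat body and 2.44% ± 0.41 in brain overlapped (adjusted p = 0.222).

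In level, RpL24-like had 261, 280.5, 216, 221 and 157 RPKM in the fat body on HSD, against 183, 175, 215, 231 and 245 RPKM in the brain on HSD. On ND it had 112, 107, 132, 207 and 179 RPKM in the fat body, against 225, 181, 200, 189 and 345 RPKM in the brain. The tissues overlapped on both diets, in contrast to RpL24 itself, which had 1974 RPKM ± 120 and 610 RPKM ± 118 in fat body and brain on HSD. On ND RpL24-like was lower in fat body, with a log2 difference of -0.63 ± 0.23 (SE, limma adjusted p = 0.0276). That call was lost, with adjusted p of 0.0523 to 0.0674, without any 1 of 5 libraries (brain ND 1 or 5, or fat body ND 1, 2 or 3), and the difference was 0.19 against the median gene, -0.16 with median-ratio rescaling and -0.28 with limma-voom, none of them called. On HSD RpL24-like was not called on the deposited values. There it was called higher in fat body against the median gene (0.72, limma adjusted p = 0.00303). The same held with limma-voom (0.39, adjusted p = 0.0193) and within libraries 1 to 3 (0.40, adjusted p = 0.0314). On HSD it was below 0 and not called with quantile normalization (-0.23) and within libraries 4 and 5 (-0.35).

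RpL34a made up 21.5% ± 1.9 of its pair with RpL34b in the fat body on HSD and 21.2% ± 2.8 on ND, against 28.1% ± 1.5 in the brain on HSD and 28.1% ± 1.2 on ND, with no overlap between tissues. RpS15Ab made up 1.21% ± 0.49 and 1.88% ± 0.77 of its pair with RpS15Aa in the fat body on HSD and ND, against 4.755% ± 0.58 and 4.36% ± 0.30 in the brain on HSD and ND. Both pairs had the same adjusted exact permutation p of 0.0202 on each diet. RpS14b made up 37.2% ± 0.8 and 37.5% ± 3.8 of its pair with RpS14a in the fat body on HSD and ND, and 33.7% ± 3.2 and 34.8% ± 3.1 in the brain on HSD and ND (adjusted exact permutation p of 0.222 and 0.366). RpS14a and RpS14b are direct neighbours in the RefSeq annotation and nearly identical, so how uniquely mapped reads were divided between them is uncertain, as it may be for other close copies.

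The remaining second copies were rare. RpL10Aa was listed at 0 in all 20 libraries. RpS10a, RpS28a and RpL22-like, a copy known from the testis, stayed at or under 0.745 RPKM in every library. RpL37b was the clearest of them, with 1.04, 1.62, 2.09, 1.52 and 2.04 RPKM in the brain on HSD and 2.28, 1.40, 2.79, 1.52 and 2.42 RPKM on ND, where the fat body was listed at 0 in all libraries but ND 2, at 0.0807 RPKM. Its log2 difference of -1.58 ± 0.16 (SE) on ND is a description, since it passed the filter through the brain alone.

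**Figure D4:**
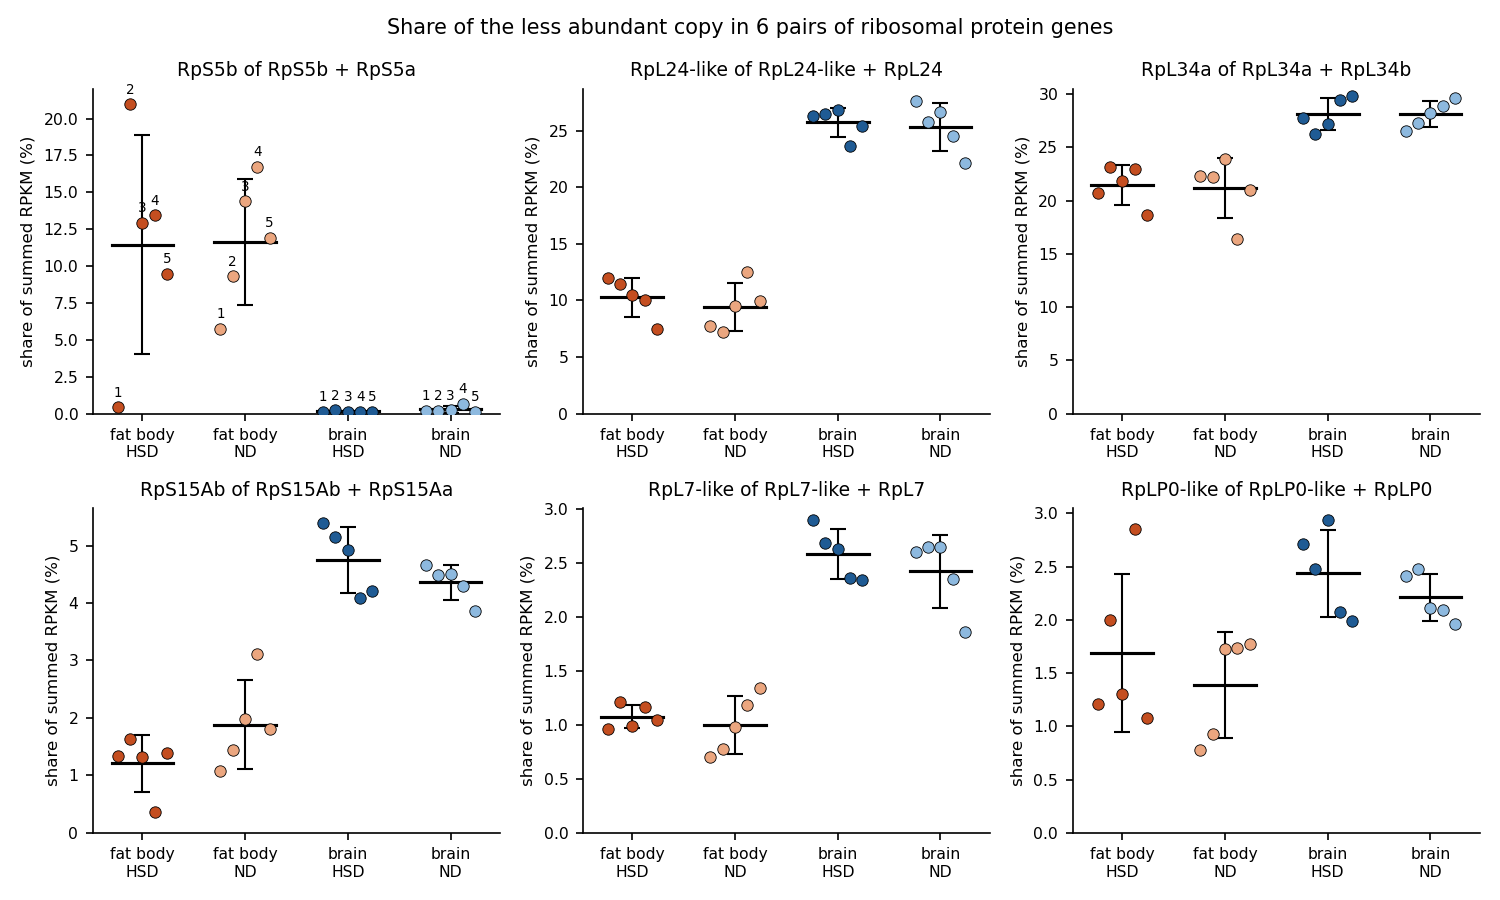
Share of the less abundant copy in the summed RPKM of its pair, in percent, for 6 pairs in the 4 groups (points are libraries, lines are means and bars are SD, n = 5; RpS5b points carry library numbers). The share of RpS5b is higher in fat body, those of RpL24-like, RpL34a, RpS15Ab and RpL7-like are lower there without overlap on either diet, and that of RpLP0-like overlaps on HSD.

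High sugar was then compared with normal food within the fat body. Nearly every member had a higher mean on HSD, but no single gene passed the test. The median log2 fold change of the 84 members tested was 0.42 (a 1.34-fold higher level), beside 0.19 over all 8224 genes, and 82 of 84 had a higher mean on HSD, as did 76.4% of all genes. With limma and Benjamini-Hochberg adjustment 0 members were called, and 0 genes of all, which is 0% (smallest adjusted p of a member 0.159). At an unadjusted p under 0.05, 73 members were higher and 0 lower, beside 7.77% and 1.78% of all genes. The HSD libraries lay above the ND libraries without overlap for 34 of 84 members, as for 1.64% of all genes.

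Against the median gene of each library no member stood apart between diets. This scale shifts the fold change of every gene by the same amount, so the distance between the set and all genes cannot change on it. It also brings in the spread of the median gene, whose log2 SD in the fat body was 0.30 on HSD and 0.35 on ND. That of the median member was 0.10 and 0.14. The SE of RpL40, for example, was 0.097 on the deposited values and 0.244 on this scale. A count of 0 here therefore does not show that the members were level between diets. The median of the members was 0.21 and that of all genes -0.02. Of the members 82 again had a higher mean, beside 47.1% of all genes, while 0 passed an unadjusted p under 0.05, beside 1.23% of all genes that were higher, and 0 stood apart between diets, beside 0.255%. A limma-voom fit on the reads recovered from the RPKM called 0 members as well, with 2 at an unadjusted p under 0.05, beside 3.9% of all genes, and a median of 0.23, beside 0.03 over all genes. With same-numbered libraries paired by a replicate block and each library set against its median gene, a fit added after the data were seen, 27 members were higher and 0 lower at an unadjusted p under 0.05, beside 2.77% and 4.2% of all genes, and 0 were called (limma, smallest adjusted p of a member 0.707). Within libraries 1 to 3 the median was 0.54, beside 0.33 over all genes, with 82 members at an unadjusted p under 0.05, beside 18.2% of all genes. No member was called there (0, smallest limma adjusted p 0.0533), where 5 of 8188 genes (0.0611%) were called higher and 11 (0.134%) lower. Within libraries 4 and 5 the median was 0.25, beside 0.00065 over all genes, with 3 members at an unadjusted p under 0.05, beside 1.18% of all genes.

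Among the small subunit genes, RpS6 and RpS3 had log2 fold changes of HSD over ND near the median of the set, at 0.43 ± 0.10 and 0.42 ± 0.11 (SE). RpS6 had 2575, 2607, 2305, 2458 and 2427 RPKM on HSD, against 1799, 1701, 1626, 1900 and 2176 RPKM on ND, and sta had 3109, 3444, 2834, 3292 and 3257 RPKM on HSD, against 2003, 1902, 1825, 2230 and 2812 RPKM on ND. In both genes the lowest HSD library lay just above ND 5, which was the highest ND library. The log2 fold change of sta was 0.58 ± 0.13 (SE, limma adjusted p = 0.212), and it was 0.37 against the median gene. The gene sop had 0.47 ± 0.13. RpS15Ab and RpS5b were the 2 members with a lower mean log2 level on HSD, at -0.32 ± 0.42 and -0.22 ± 0.87, both with libraries that overlapped widely. Neither direction held throughout, since RpS5b was at 0.77 without HSD 1 and had a higher mean RPKM on HSD (308, against 228 on ND), and RpS15Ab was at 0.49 within libraries 1 to 3.

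Among the large subunit and stalk genes, RpLP2 and RpL22 had fold changes at the upper end. RpLP2, with the fat body values given above, had a log2 fold change of HSD over ND of 0.63 ± 0.17 (SE, limma adjusted p = 0.256), and its diets overlapped through HSD 5. RpL22, which binds a viral RNA as well as ribosomal RNA in human cells, had 2372, 2769, 2242, 1928 and 1207 RPKM on HSD, against 1625, 1618, 1591, 960.5 and 969 RPKM on ND. HSD 5 lay below ND libraries 1 to 3, and the log2 fold change was 0.63 ± 0.24 (adjusted p = 0.449). The genes RpLP0-like and RpL24-like had 0.68 ± 0.33 and 0.64 ± 0.21, and RpL24-like was -0.05 within libraries 4 and 5. RpL32 had 0.48 ± 0.11 (SE, adjusted p = 0.248), with HSD libraries between 1705 and 2027 RPKM and ND libraries between 1187 and 1704 RPKM.

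The smallest differences of the large subunit were those of RpL39, a protein of the exit tunnel, at 0.24 ± 0.16, and RpL38 at 0.30 ± 0.31. RpL38 had 1268, 1060, 885, 1614 and 879 RPKM on HSD, against 622, 668, 588, 1640 and 1479 RPKM on ND. Libraries ND 4, ND 5 and HSD 4 stood apart from the rest of their groups for this gene, and within libraries 4 and 5 its log2 fold change was -0.39. RpL41 had 6567, 6057, 5632, 10239 and 7575 RPKM on HSD, against 3821, 3793, 3586, 7978 and 8108 RPKM on ND, with ND 4 and ND 5 again well above ND 1 to 3. RpS27A had 3065 and 3452 RPKM in ND 4 and ND 5, against 1830 to 2080 RPKM in ND 1 to 3, and RpLP2 and RpL22 were lower in ND 4 and ND 5 than in ND 1 to 3. Spearman's rho between transcript length and the deviation from the mean of ND 1 to 3, each library set against its median ribosomal protein gene, was -0.167 in ND 4 and -0.0999 in ND 5 over 84 members, and rho between length and the diet difference was 0.334. Without ND 4, ND 5 and HSD 4 the median of the set was 0.50, beside 0.25 over all genes, and 0 members were called and 0% of genes (limma, smallest adjusted p = 0.0819), with 77 members at an unadjusted p under 0.05, beside 15.3% of all genes.

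**Figure D5:**
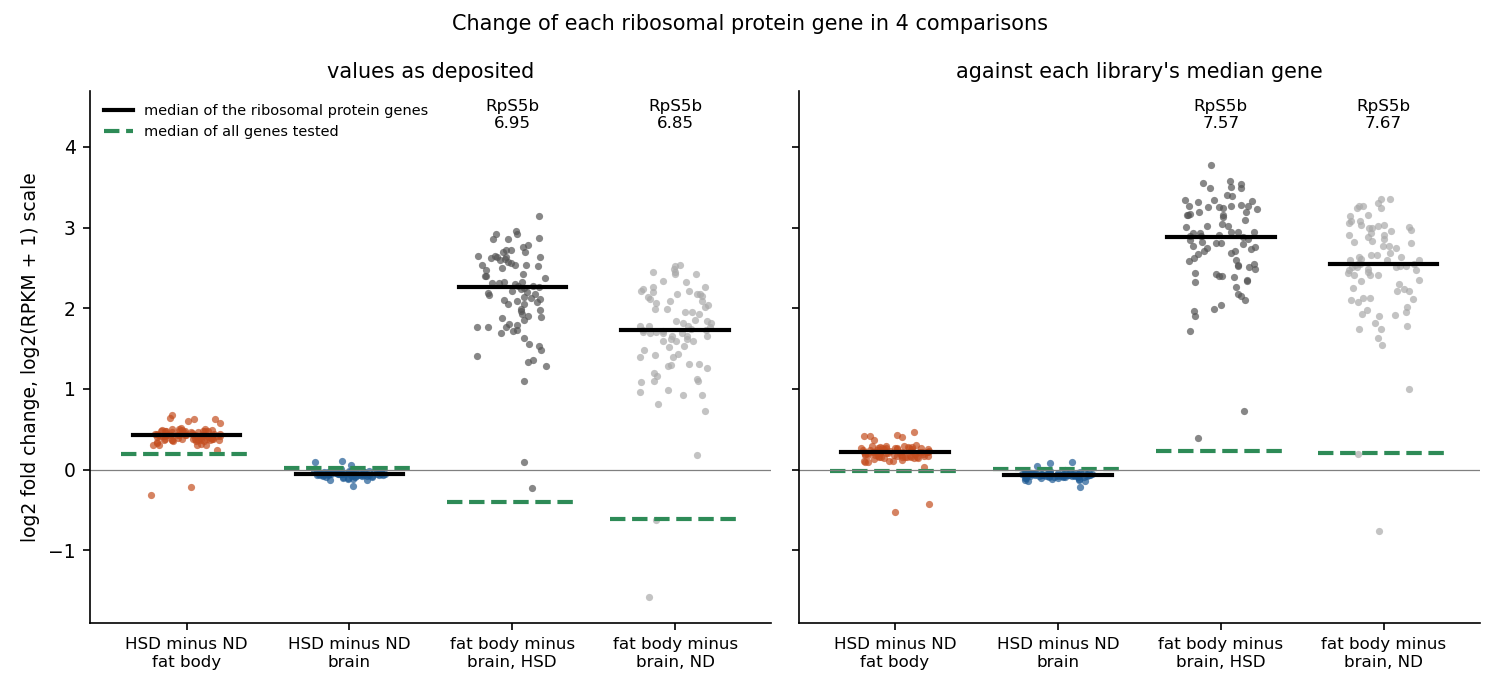
Log2 fold changes of the 84 or 85 ribosomal protein genes tested in 4 comparisons, for the deposited values (left) and against the median gene of each library (right); points are genes, black lines their median, and dashed lines the median of all genes tested. The members lie at a median of 0.42 for HSD minus ND in fat body, -0.05 in brain, and 2.26 and 1.73 for fat body minus brain on HSD and ND, and RpS5b is written as a value above the frame.

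In the brain the means of HSD and ND lay close together. The median log2 fold change of HSD over ND was -0.05, beside 0.02 over all 8911 genes tested, and 4 of 84 members had a higher mean on HSD, as did 61.3% of all genes. With limma 0 members were called and 0 genes of all, which is 0%, and 0 members reached an unadjusted p under 0.05, beside 0.741% of genes higher and 0.146% lower. The sign turned without brain ND library 5, where the median was 0.10 and 82 of 84 members had a higher mean on HSD, as did 67.6% of all genes. Without brain HSD library 2 it was 0.0028, with 47 of 84 higher, beside 67.1% of all genes, and without ND 5, HSD 4 and HSD 5 together it was -0.06, with 11 of 84 higher, beside 57.9%.

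Among members with a mean of at least 5 RPKM, the brain differences at both ends were within about 1 SE of 0. RpLP0-like had 0.11 ± 0.11, RpS15Ab 0.09 ± 0.13, RpL7-like 0.05 ± 0.08 and RpLP2 0.01 ± 0.17, and RpL32 had -0.13 ± 0.21, RpL41 -0.13 ± 0.28 and RpL24 -0.12 ± 0.23 (SE, limma adjusted p = 1 for each). RpL24 had 513, 485, 587, 746 and 719 RPKM in the brain on HSD, against 588, 519, 550, 581 and 1209 RPKM on ND. For this gene ND 5 was above every other brain library, and HSD 4 and HSD 5 were the highest HSD libraries. ND 5 was also the brain library with the most fat body marker RPKM (10590) and 2.00% of its RPKM on yolk protein genes, against 0.0757 to 0.857% in brain ND libraries 1 to 4. HSD 4 had 0.803% and HSD 5 had 0.383% on yolk protein genes, against 0.0632 to 0.109% in HSD libraries 1 to 3. The part of these markers in the brain values was not tested.

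The diet differences of the tissues were compared directly by the interaction, (HSD minus ND in fat body) minus (HSD minus ND in brain). Its median over 84 members was 0.48, beside 0.16 over all 9281 genes, and 83 of 84 were above 0, as were 75.1% of all genes. With all libraries 0 members were called and 0 genes of all, which is 0% (limma, smallest adjusted p of a member 0.772), and 47 members were above 0 at an unadjusted p under 0.05, beside 5.76% of all genes. RpL24-like had 0.73 ± 0.29, RpL22 0.68 ± 0.28, sta 0.61 ± 0.21 and RpLP2 0.61 ± 0.25 (SE). The smallest were RpS15Ab at -0.42 ± 0.47, RpS5b at 0.10 ± 0.99, RpL39 at 0.29 ± 0.29 and RpL38 at 0.36 ± 0.41.

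The outcome of this test turned on the libraries used. Within libraries 1 to 3 of each group 71 of 84 members were called, all with a larger diet difference in fat body, where 2.38% of 9205 genes were, with a median of 0.59 and a smallest adjusted p of 0.00796. In that fit RpL24-like had 1.18, RpL22 0.89 and sta 0.74. Within libraries 4 and 5 alone 0 members were called and the median was 0.30, beside 0.0023 over all genes. With so few libraries that fit called 0 genes of all, so its count cannot be set against the 71. Against the median gene of each library the interaction median with all libraries was 0.29 and 0 members reached an unadjusted p under 0.05, beside 0.884% of genes above 0 and 1.03% below. With the replicate block added on that scale, a fit added after the data were seen, 18 members were above 0 and 0 below at an unadjusted p under 0.05. Of all genes 2.62% were above and 2.73% below, and 0 members were called (limma, smallest adjusted p of a member 0.824).

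Other genes of protein synthesis were read beside the set from lists chosen for their roles. Translation factors, of which 27 of 35 listed were found and tested, had a median tissue difference of 1.30 on HSD, with 21 higher and 4 lower in fat body, and of 1.04 on ND, with 20 higher and 5 lower. Over all genes the medians were -0.40 and -0.61, with 27.2% higher and 47.3% lower on HSD and 23.2% higher and 51.6% lower on ND. Ribosome biogenesis genes, 22 of 25 listed, had 1.27 on HSD, with 19 higher and 0 lower, and 0.78 on ND, with 14 higher and 0 lower. The 72 genes of the mitochondrial ribosome had -0.27 on HSD, with 6 higher and 26 lower (36.1% lower), and -0.56 on ND, with 2 higher and 40 lower (55.6% lower). Against the median gene their medians were 0.36 on HSD and 0.26 on ND. Between diets in the fat body the medians were 0.39, 0.60 and 0.31 for translation factors, ribosome biogenesis and the mitochondrial ribosome, with 0 genes called, and 0.42 for the cytosolic ribosomal proteins, beside 0.19 over all genes. In the brain the same medians were -0.01, 0.05 and 0.02, beside -0.05 for the cytosolic ribosomal proteins and 0.02 over all genes.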

How the data were processed

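Libraries of poly(A) RNA were sequenced, and only reads with a unique place in the genome counted, per the labels. TopHat is the aligner and dm3 the build named in the submitters' processing notes, and versions are not given in the sources used here. The deposited values are RPKM per gene, computed by the authors per the labels. Each table held 15080 entries, and 188 symbols that named several entries (1107 entries) were left out. No pair of tables was identical (0 found). Turned back into reads, 99.99% of the RPKM values above 0 were whole within 0.01 of a read, and these reads gave depth, gene lengths and the limma-voom alternative. Statements on depth cover counting error alone, and no intervals are given.

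The model for each comparison was fitted to log2(RPKM + 1) by limma 3.58.1 (R 4.3.3, trend option), for every gene whose RPKM averaged at least 1 over the libraries used. A fold change on that scale is too small for low genes. The two-sided p-values were adjusted by Benjamini-Hochberg across all fitted genes, with 0.05 as the threshold. The fits were tested on simulated data. Since the labels do not tie replicates to separate animals, the spread behind each p-value may be technical.

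Members, gene lists and tests were chosen with earlier results of these data known. Named genes are sta, sop, RpS3, RpS6, RpS27A, RpL40, RpLP0, RpLP1, RpLP2, RpL41 and RpL32, all pairs of copies, and for each comparison the 4 largest and 4 smallest log2 fold changes among members with a mean of at least 5 RPKM, except a gene that is not reported here. RpL23A and RpL5 were named after their levels were seen. RpL10 and RpS21, listed under other symbols (Qm, which also matches another gene, and oho23B), are not members by the rule. Of the members, 88 carry a current symbol in the RefSeq table, used for names and neighbours only. Promoter and protein sequences were not used here, and no coordinates are given because the reference is of another assembly than dm3.

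Same-numbered libraries were checked for pairing by correlating how each deviates from its group mean. Across diets the correlations were 0.25, 0.15, 0.65, 0.23 and 0.13 in the fat body and 0.44, 0.58, 0.55, 0.30 and 0.66 in the brain. All were above 0.1, so same-numbered libraries were treated as pairs in a fit with a replicate block. The same-numbered library was the best match only for numbers 3 and 4 in the fat body and 5 in the brain, so the pairing is weakly backed. What a shared number stands for is not in the labels. Between tissues the correlations lay between -0.23 and 0.15, and the main tissue fits used no pairing. The block fits of the tissue comparisons nevertheless grouped same-numbered libraries of fat body and brain. The alternatives were scaling to the median gene, median-ratio rescaling, quantile normalization, limma-voom, another pseudocount (0.1), no filter, the block, libraries 1 to 3 and libraries 4 and 5 apart, fat body ND 4, ND 5 and HSD 4 left out, and each library left out in turn. Scaling to the median ribosomal protein gene, leaving out brain ND 5, HSD 4 and HSD 5, the block together with the median gene scale, and the share without yolk protein genes were added after the data were seen.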

Additional observations from a re-analysis of the deposited data

Results flagged for a closer look

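In brain ND library 5, most ribosomal protein genes named in the text stood far above the other 4 libraries of the group, with a gap to the nearest library above 0.71 of the group's whole range, Dixon's limit for 5 libraries. In RPKM, this library had RpL24-like 345, RpLP2 560, RpL38 892, RpL39 833, RpS15Ab 24.4, RpL24 1209 and RpL32 701 RPKM. Further values of it were RpL41 2444, RpL11 648, RpS23 573, RpL29 1325, RpL30 418, sta 912, sop 896 and RpS3 938 RPKM. Among the rest it had RpS6 1088, RpS27A 1236, RpL40 812, RpLP0 700, RpLP1 935, RpS5a 518, RpS10b 708 and RpS14b 390 RPKM. It also had RpS14a 616, RpS15Aa 607, RpS19a 473, RpS28b 1267, RpL10Ab 450, RpL34a 145, RpL37a 958 and RpL7 926 RPKM. The share of all RPKM on the ribosomal protein genes was 14.0% in the same library, against 9.23 to 9.95% in the other 4. RpL22 was not among these genes. Fat body markers summed to 10590 RPKM in this library, the highest of the brain, and their part in these values was not tested.

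In the fat body, ND library 5 stood apart in the same way for RpL32 at 1704 RPKM, RpS19a at 1423 RPKM and RpL34a at 344 RPKM. In all 35 of 148 groups of values tested had a library apart by this criterion, where chance gives about 1 in 20. The genes of a library are not independent of each other.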

How the results depend on the processing

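The median log2 fold change of the ribosomal protein genes kept its sign under all settings except in the brain, where it ranged from -0.12 to 0.10 without single libraries. For the diet in the fat body it was 0.21 against the median gene, 0.19 with median-ratio rescaling, 0.12 with quantile normalization, 0.23 with limma-voom and 0.25 within libraries 4 and 5. For the tissues on HSD it was 2.89, 2.54, 0.79, 2.56 and 2.03 in the same order. For the tissues on ND it was 2.55, 2.20, 0.56 and 2.09 under the first 4 of these. For the interaction it was 0.15 with quantile normalization and 0.23 with limma-voom, and the count called was 71 within libraries 1 to 3. The share of all RPKM was 15.4, 11.5, 3.22 and 3.41% in recovered reads for fat body HSD, fat body ND, brain HSD and brain ND, and 32.5 and 27.8% without yolk protein genes in fat body HSD and ND. With the replicate block the members called were 0 in the fat body (77 at an unadjusted p under 0.05, beside 13.4% of all genes, smallest adjusted p 0.343), 0 in the brain, 82 and 84 between tissues on HSD and ND, and 0 in the interaction (63 at an unadjusted p under 0.05, beside 10.9% of all genes), so the pairing changed no count of calls. Without single libraries the counts called were 0, 0 and 0 for the diet in fat body, in brain and the interaction, 82 in each for tissue on HSD, and 80 to 83 for tissue on ND.

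With the block and the median gene scale together the medians were 0.21, 2.89 and 2.55 in the fat body and between tissues on HSD and ND, and the counts called were 0 for both diet fits and the interaction and 83 for both tissue fits. Quantile normalization ended tissue calls of RpL38, RpS27A and RpL41 on HSD and of sop, RpS3, RpS27A, RpL40 and RpL41 on ND, among the named genes. Some settings added tissue calls as higher in fat body. On ND this held for RpS15Ab against the median gene (1.00, limma adjusted p = 0.00454). It also held for RpS15Ab with median-ratio rescaling (0.63, adjusted p = 0.0489) and quantile normalization (0.96, adjusted p = 0.00454). On HSD it held for RpL24-like, as given above.

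Some single genes changed sign. In the fat body diet fit, RpL39 was -0.11 and RpS27A -0.00455 (quantile), RpL24-like -0.047, RpL38 -0.39 and RpL39 -0.10 (libraries 4 and 5), and RpS15Ab 0.49 (libraries 1 to 3) and 0.52 (without ND 4, ND 5 and HSD 4). In the brain, RpLP2 was -0.0056 (median-ratio) and -0.0549, RpLP0-like -0.0274 and RpS15Ab -0.0105 (libraries 4 and 5), RpL41 0.0099 (quantile) and RpL7-like -0.0201 (libraries 1 to 3). Between tissues on HSD, RpS15Ab was 0.39, 0.0365, 0.37, 0.11, 0.0942 and 0.0624 (median gene, median-ratio, quantile, limma-voom, libraries 1 to 3, without ND 4, ND 5 and HSD 4), RpL29 -0.67, RpS6 -0.14 and RpL24-like -0.23 (quantile), and RpL24-like -0.35 (libraries 4 and 5). On ND, RpL24-like was 0.19 (median gene), RpL29 -0.68 and RpS6 -0.24 (quantile), and RpS15Ab -0.23 (libraries 1 to 3) and -0.36 (without those 3). In the interaction, RpS5b was -0.0986, -0.15, -0.0134 and -0.18 (median gene, median-ratio, quantile, libraries 1 to 3), RpL39 -0.0595 (quantile), RpL38 -0.19 (libraries 4 and 5) and RpS15Ab 0.32 and 0.42 (libraries 1 to 3, without those 3). Without single libraries the brain diet values of RpL24 lay between -0.20 and 0.10, RpL32 -0.21 and 0.0572, RpL41 -0.27 and 0.11, and RpLP2 -0.0547 and 0.18. Those of RpS15Ab lay between -0.37 and 0.0624 for tissue on HSD and -0.11 and 0.40 on ND, and those of RpS5b between -0.66 and 0.77 for the fat body diet and -0.34 and 1.08 for the interaction. The cause was not tested in any of these. The promoter motif search was not run, because no promoter sequences were at hand.

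Fat body ND library 4, at 5.6 M reads, sets the coarsest floor (3 reads on 1 kb are 0.536 RPKM), which touches the rare copies and no abundant member. With 5 libraries a group and a scale set by totals, a joint shift of this set, which holds 20.9 to 32.6% of fat body RPKM, cannot be told apart from a shift of the remaining genes.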
